A study of Drosophila melanogaster with 2 samples.

Results

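The 10 genes described here encode structural and contractile proteins of muscle in Drosophila melanogaster: sls, Msp300, Tm1, Tm2, Mhc, Mlc2, Act57B, up, wupA and bt. They were taken as a named list out of 13945 protein-coding genes annotated on the 6 chromosome arms, and for each the peaks in the gene body and within 5 kb were read from the deposited lists. Chromatin came from whole embryos of mixed sex, aged 0 to 16 h, from a transgenic line that carries Mes4 with GFP at its C terminus. The labels give sonicated fragments of 200 to 800 bp and a pull-down by an anti-GFP antibody. Mes4 is a protein with a histone-fold domain, a fold that pairs with a partner of the same kind to form complexes on DNA. Both samples, biological replicates 3 and 4, are of this 1 group, so there is no contrast between conditions, and no untagged or untreated sample was analysed here. Whole embryos mix many tissues, of which muscle is a minor share, and the peak lists do not say from which cells a peak came.

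In the embryo, muscle precursors fuse into syncytial fibres and then switch on genes for the sarcomere, the repeated unit in which myosin thick filaments slide along actin thin filaments. Mef2 is the best known activator of these genes in fly muscle, and many of them use several promoters and intronic enhancers to make isoforms for different muscles. Mhc encodes the heavy chain of muscle myosin and Mlc2 its regulatory light chain. Act57B is a muscle actin, Tm1 and Tm2 are tropomyosins that lie along the actin filament, and up and wupA encode troponin T and troponin I, which make contraction depend on calcium. sls and bt encode the giant titin-like proteins sallimus and projectin, of which sallimus links the Z disc to thick filaments. Msp300 is a nesprin, a giant spectrin-repeat protein at the nuclear envelope that helps to place muscle nuclei. Tm1 also gives non-muscle tropomyosins, which are made outside muscle.

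The members fell into 3 genes with a reproducible peak at a transcription start site (TSS) and 7 without. A gene is called bound if it has a TSS with the summit of an optimal IDR peak no more than 500 bp away. The optimal list, thresholded on the irreproducible discovery rate between replicates, holds 3207 peaks. They are the strongest 3207 of the 30000 in the relaxed list pooled from both replicates, and peaks are ranked by the authors' signal value, rank 1 being the strongest. Bound were sls, Msp300 and Tm1 (3 of 10, 30%), against 15.1% of all protein-coding genes. These 3 are long genes, and among protein-coding genes of at least 10 kb 22.6% were bound. Of the 6 members of at least 10 kb, 3 were bound. None of the 4 shorter members was, but the share for genes under 10 kb was not computed, and 4 genes are too few to show a lack. Members were chosen with results known, so these shares are a description and carry no test.

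Shown here are the sequences around the summits of peaks at member promoters that are described below. They are from the Release 6 RefSeq genome (dm6), written 5′ to 3′ along the direction of transcription, 100 bp to each side of the summit and trimmed where an exon of any gene begins. Capitals mark matches on either strand to 6 motifs: the DNA replication-related element (DRE, TATCGATA), a GATA site (AGATAA), the E box (CANNTG), the Mef2 site, the GAGA element (GAGAG) and the CCAAT box (CCAAT). The sls window is chr3L:2115799-2115999 on the minus strand, and the Msp300 window is chr2L:5108071-5108271 on the plus strand. The Tm1 windows lie on the plus strand at chr3R:15281068-15281268 (the optimal peak) and chr3R:15287822-15287991 (the next strongest peak at another of its promoters, at pooled rank 3598).
sls promoter: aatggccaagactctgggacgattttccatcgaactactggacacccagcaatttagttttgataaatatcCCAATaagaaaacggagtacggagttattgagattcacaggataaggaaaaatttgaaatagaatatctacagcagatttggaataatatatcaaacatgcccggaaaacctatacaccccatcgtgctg
Msp300 promoter: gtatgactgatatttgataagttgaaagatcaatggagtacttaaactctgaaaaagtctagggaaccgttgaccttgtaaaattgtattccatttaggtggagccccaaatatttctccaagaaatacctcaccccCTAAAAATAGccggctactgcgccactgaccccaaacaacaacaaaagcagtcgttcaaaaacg
Tm1 promoter, pooled rank 2230: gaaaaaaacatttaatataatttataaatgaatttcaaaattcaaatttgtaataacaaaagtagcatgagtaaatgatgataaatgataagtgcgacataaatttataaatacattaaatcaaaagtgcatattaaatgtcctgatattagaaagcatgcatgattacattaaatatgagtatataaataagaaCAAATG
Tm1 promoter, pooled rank 3598: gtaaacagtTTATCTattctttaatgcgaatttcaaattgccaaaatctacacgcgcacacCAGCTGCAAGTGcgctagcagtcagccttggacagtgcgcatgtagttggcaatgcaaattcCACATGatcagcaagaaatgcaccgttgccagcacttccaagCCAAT

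The titin-like gene sls had the strongest peak of the 10 genes, at its only annotated start. The gene (FBgn0086906, 3L, 2039681 to 2115611, minus strand) has 13 transcripts in the annotation, all from that TSS. The peak ran from 2115798 to 2115986, and its summit lay 288 bp upstream of the TSS, outside the gene body. Its signal value was 323 in the pooled list, at rank 258. Replicate 3 gave 204 at rank 230, with the summit 16 bp from the pooled summit, and replicate 4 gave 119 at rank 341, with the summit 6 bp away. Signal values are on a scale of their own in each list, so only the ranks can be set side by side, and both replicates placed this peak near the top of their 30000. Apart from it the pooled list held just 1 weak peak in the 75931 bp of the gene, in a coding exon at rank 23379, which had no match in replicate 3. A CCAAT box lay 27 bp upstream of the summit in the sequence above, as the only motif match of the 6, and 32.8% of all optimal summit windows hold that motif.

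Msp300 was bound at an internal promoter, not at its first. The gene (FBgn0261836, 2L, 5100877 to 5207002, plus strand) has 5 TSSs. The summit (peak from 5108145 to 5108248) lay 341 bp upstream of the second, at 5108512, from which the transcripts RD and RL start, and so in an intron of the transcripts from the first TSS, which is 7635 bp further upstream. The pooled signal value was 301, at rank 302. In replicate 3 the value was 186 at rank 275 and in replicate 4 it was 122 at rank 323, with summits 12 and 17 bp from the pooled summit. The peak was 104 bp wide, the least width in the list, where the median is 416 bp. Strong peaks were often narrow: 28.4% of the 500 strongest optimal peaks were narrower than 200 bp, against 7.92% of all optimal peaks. The first TSS of Msp300 had no pooled summit within 500 bp, and neither did the fifth. TSSs 3 and 4 had weak ones, at ranks 14040 and 13314. The sequence above holds a match to the Mef2 site, the motif of the muscle activator named before, with its middle 41.5 bp downstream of the summit. Mef2 matches are in 9.82% of all optimal summit windows and in 5.54% of those of the 30000 pooled peaks, and a match does not show that the factor binds there.

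Tm1 had peaks at several of its 8 TSSs, and its own strongest peak was much weaker than those of sls and Msp300. The gene (FBgn0003721, 3R, 15278220 to 15308779, plus strand) makes 18 annotated transcripts. Its optimal peak, from 15280960 to 15281375, had the summit 203 bp upstream of the second TSS, that of transcript RG, and 364 and 382 bp upstream of TSSs 3 and 4, which between them start 10 of the gene's transcripts. It stood at pooled rank 2230 with a signal value of 106. Replicate 3 gave a value of 81.2 at rank 1464, with the summit 5 bp away. Replicate 4 gave 29.2 at rank 4871, with the summit 111 bp away, which is outside its 3207 strongest peaks. The sequence of this window was poor in G and C, at 20.4%, whereas the quartiles of all optimal windows were 33.3% and 42.8%. Its only motif match was an E box at its 3′ edge, and E boxes are in 62.3% of all optimal windows.

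The replicates differed in which Tm1 promoter was stronger. Around the sixth TSS, 9792 bp from the first and the start of transcripts RC and RI, the strongest summit within 500 bp had rank 2573 in replicate 4 (signal value 41.3) and rank 3618 in replicate 3 (49.2). The pooled peak there had rank 3598 with a signal value of 79.9, just outside the optimal list, and its summit lay 121 bp upstream of the TSS. So with the 3207 strongest peaks of replicate 3 alone Tm1 was bound at TSSs 2 to 4, and with those of replicate 4 alone it was bound at TSS 6. The fifth TSS had a peak in replicate 3 (rank 3943) and none in replicate 4. The seventh and eighth likewise had one in replicate 3 alone, at rank 9449. The first TSS had ranks 5387 and 12530 in replicates 3 and 4, but its pooled summit was nearer to the TSS of MRG15 (135 bp) than to that of Tm1 (246 bp). Of the printed sequences, the one at the sixth TSS held the most motif matches, with a GATA site, 3 E boxes and a CCAAT box, and 2 of the E boxes lay within 10 bp of the summit.

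**Figure D1:**
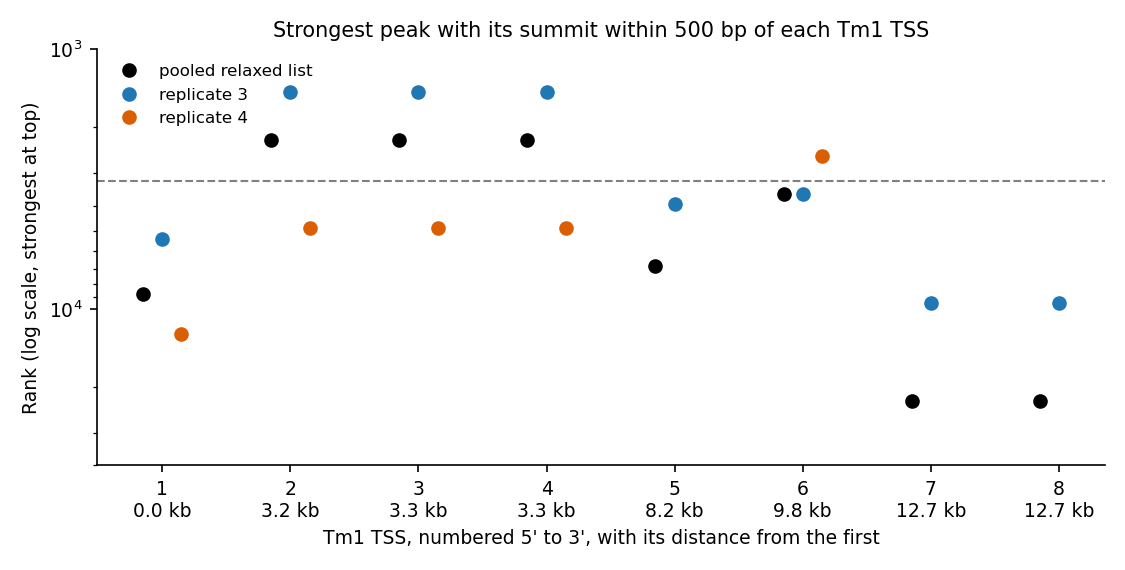
Rank (log scale, strongest at the top) of the strongest peak whose summit lies within 500 bp of each of the 8 Tm1 TSSs, in the pooled list and in replicates 3 and 4; the dashed line is rank 3207 and no point means no such peak. Replicate 3 lies above the line at TSSs 2 to 4, at rank 1464, and replicate 4 lies above it at TSS 6, at rank 2573.

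The strongest peaks within 5 kb of Tm1 lay at its neighbours. A peak at rank 343 (15275251 to 15275360, signal value 288) had its summit 49 bp from the TSS of Cp190, an insulator protein gene, and 2930 bp upstream of the first Tm1 TSS. An overlapping peak at rank 1470 had its summit 30 bp from the TSS of CG4338. In replicates 3 and 4 these stood at ranks 348 and 409, and at 1644 and 1573. The window at rank 343 was the only one of the 5 optimal windows around members with a DRE, which 4.55% of all optimal windows hold. Counting only peaks inside a member or nearest to its TSS, 3 optimal peaks were left around the 10 genes, 1 each for sls, Msp300 and Tm1, and none of the 3 had a TSS of another gene within 500 bp.

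**Figure D2:**
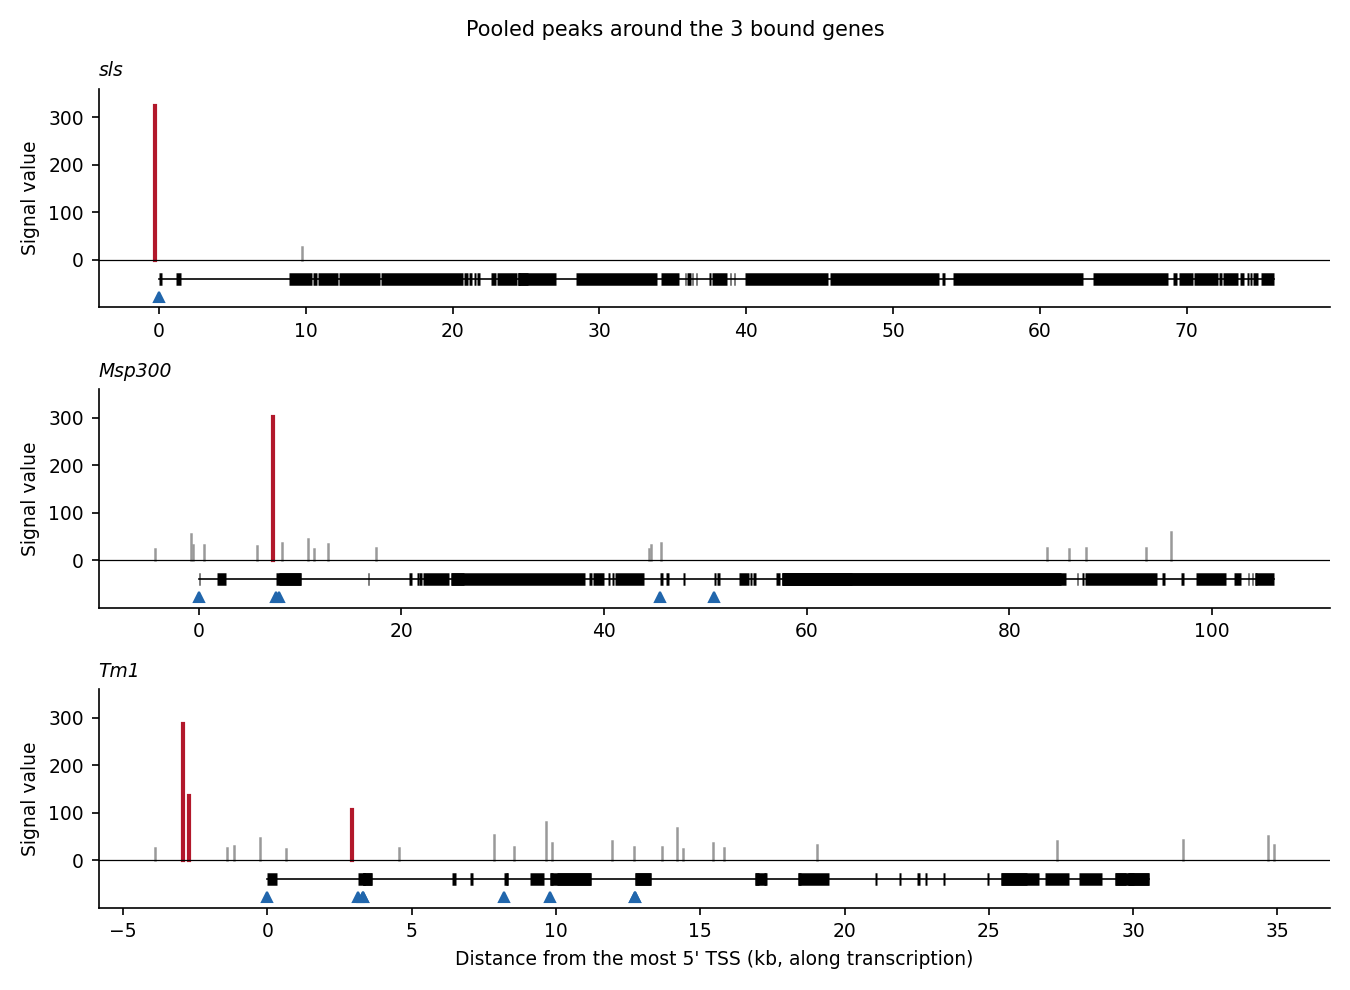
Signal value of each pooled peak (vertical lines, optimal IDR peaks in red, others in grey) against distance in kb from the most 5′ TSS along transcription for sls, Msp300 and Tm1; black bars are exons of any transcript and blue triangles are TSSs. The red lines stand at the sls start (323), 341 bp before the second Msp300 TSS (301) and, for Tm1, at 288 and 135 over the neighbours Cp190 and CG4338 and at 106 before TSSs 2 to 4.

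The other 7 members had no optimal peak in the gene or within 5 kb. In all, 3 of 10 members had one (30%), against 38.9% of protein-coding genes, and 3 of the 6 members of at least 10 kb, against 55% of genes of that length. The windows of the 10 genes span 409 kb and held 5 optimal peaks, 12.2 per megabase, where the arms as a whole hold 24.0. No member had an optimal summit in an intron over 500 bp from every TSS. The like comparison is none of the 6 members of at least 10 kb, against 25.9% of protein-coding genes of that length. In the relaxed pooled list all 10 members had a peak in the window, as did 86.9% of protein-coding genes, and 5 of 10 (sls, Msp300, Tm1, Tm2 and up) had one within 500 bp of a TSS, against 54.6%. The deposited description of that list is peaks and background together, and its weakest entries have a −log10 q-value of 0.11.

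**Figure D3:**
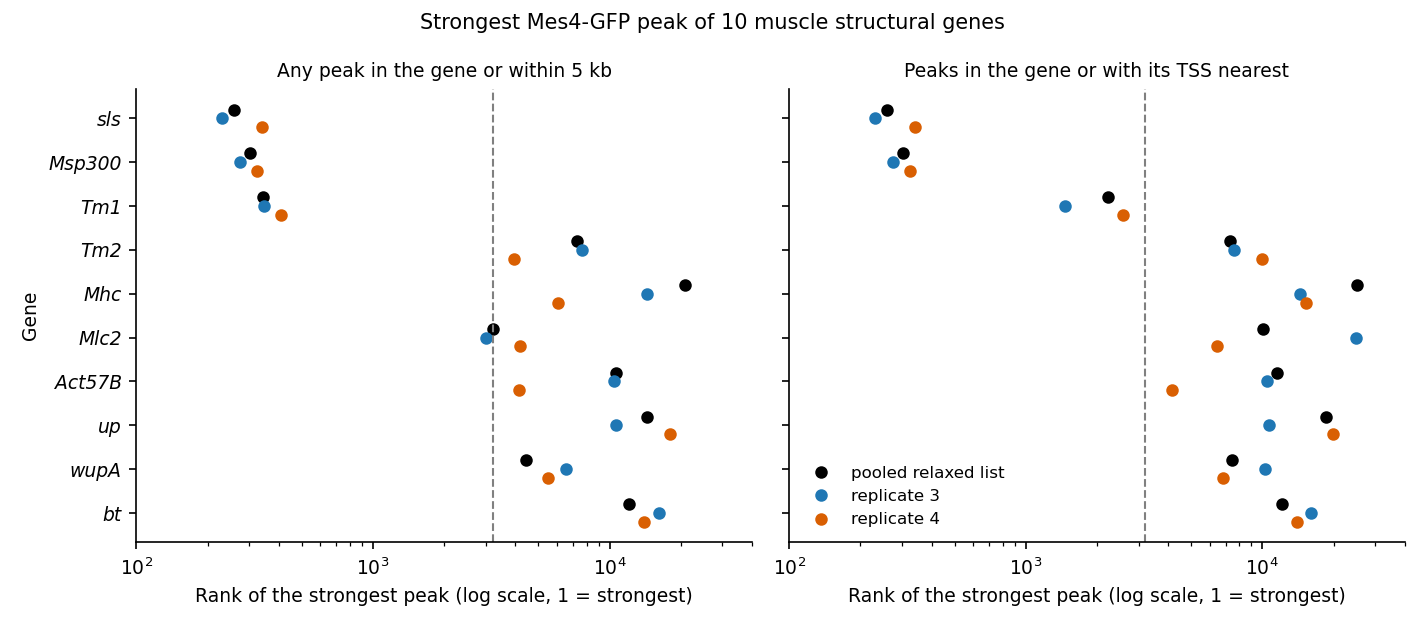
Rank (log scale) of the strongest peak of each member in the pooled list and in replicates 3 and 4, on the left for any peak in the gene or within 5 kb and on the right for peaks inside the gene or with its TSS as the nearest; the dashed line is rank 3207. On the right the points of sls, Msp300 and Tm1 lie left of the line, from rank 230 to 2573, and the other 7 genes lie right of it in all 3 lists.

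Among thick filament genes, Mhc had the weakest peaks of the 10 in the pooled list, but not in either replicate alone. Its strongest pooled peak within 5 kb stood at rank 20754 and belonged to the neighbour Cyt-b5-r, whose TSS was 160 bp from the summit. Inside Mhc (FBgn0264695, 2L, 16766566 to 16788766) the best pooled rank was 25075, in an intron 4895 bp from the nearest of its TSSs. None of its 5 TSSs had a pooled summit within 500 bp, and that includes the TSS at 16766734 from which 14 of its 21 transcripts start. The best ranks inside the gene were 14446 in replicate 3 and 15307 in replicate 4, and replicate 4 ranked the Cyt-b5-r peak at 6036. Replicate 3 had a peak 238 bp downstream of the fifth TSS at rank 15354, and replicate 4 had none at any Mhc TSS. The light chain gene Mlc2 (FBgn0002773, 3R, 30171438 to 30174551) had a pooled peak at rank 3211 in its window, only 4 places below the last optimal peak. That peak lay downstream of Mlc2, 344 bp from the TSS of Rsod, and ranked 3016 in replicate 3 and 4184 in replicate 4. Among the 3207 strongest peaks of replicate 3 alone it was included, which made Mlc2 another member with a peak within 5 kb. The strongest peak nearest to the TSS of Mlc2 itself was 572 bp upstream at rank 10036, with a match in replicate 4 (rank 6433) and none in replicate 3. Replicate 3 had instead a weak peak 1 bp from that TSS, at rank 24906.

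Thin filament genes other than Tm1 had weak entries too. Tm2 (FBgn0004117, 3R, 15310193 to 15315197) starts next to the 3′ end of Tm1, so that their windows share 4 pooled peaks. Its strongest pooled peak was in a coding exon at rank 7312, 505 bp from its last TSS, and ranked 10472 in replicate 3 and 9978 in replicate 4. The peak at its first TSS, 262 bp upstream, stood at rank 10012, and at 9984 and 12403 in the replicates. In the window of Act57B (FBgn0000044, 2R, 20944021 to 20946431) the strongest pooled peak, at rank 10604, lay downstream of the gene. It ranked 18579 in replicate 3 and 6528 in replicate 4. Act57B also had a peak in its coding exon at rank 11509 that replicate 4 ranked at 4157 and replicate 3 lacked. Its summit was 143 bp from the TSS of an annotated small nucleolar RNA gene. The pooled list had no summit within 500 bp of its single TSS. The troponin T gene up (FBgn0004169, X, 13593474 to 13602578) had pooled peaks at the first 3 of its 6 TSSs, at ranks 19142 and 19284. They matched 2 neighbouring peaks of replicate 3 (ranks 10702 and 10697) and none of replicate 4. The strongest pooled peak in the window of up, at rank 14443, lay inside the neighbour CG11178. It ranked 24596 in replicate 3 and 18069 in replicate 4. Tm2 had a better rank than Act57B in replicate 3 (7627 against 10427 for the best peak in or nearest to each gene) and a worse one in replicate 4 (9978 against 4157, the latter being the peak near the small nucleolar RNA gene), so they cannot be put in order by signal.

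The troponin I gene wupA had the strongest intronic peak among the unbound members that both replicates held. It lay in wupA (FBgn0283471, X, 18105568 to 18116922), 959 bp upstream of the third TSS, at pooled rank 7438, and ranked 10264 in replicate 3 and 6813 in replicate 4. The stronger peak in its window, at rank 4455, was 42 bp from the TSS of Mvb12. No wupA TSS had a summit within 500 bp in any of the lists. Projectin, bt (FBgn0005666, 4, 724400 to 776474), is 52075 bp long and had 1 pooled peak inside, in a coding exon at rank 28532. Its best pooled peak, at rank 12106, lay 3787 bp upstream of the first TSS, inside the neighbouring gene ey. Replicate 3 ranked it at 16137 and replicate 4 at 14008. Each replicate had a weak peak at a bt TSS, at ranks 24481 and 26499, but at different TSSs.

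Of the 82 pairs of a member and a pooled peak, 14 lay within 500 bp of a TSS of the member, 26 in introns, 9 in coding exons, 2 in other exons and 31 in the flanks. Msp300 held 10 of the 26 intronic peaks and Tm1 held 8. The strongest intronic peaks over 500 bp from any TSS were at rank 4683 in Tm1, rank 5941 in Msp300 and, as above, rank 7438 in wupA. In Tm1 the peak lay 1473 bp downstream of the last TSS and ranked 3873 in replicate 3 and 9694 in replicate 4. In Msp300 it lay 849 bp from the start of the small RNA gene sncRNA:128 and ranked 9758 and 5170. All 3 were outside the 3207 strongest peaks of either replicate. Their sequences are shown for comparison with the promoter windows, in the same form, at chr3R:15292319-15292519 for Tm1 (plus strand), chr2L:5196784-5196984 for Msp300 (plus strand) and chrX:18115593-18115793 for wupA (minus strand).
Tm1 intron: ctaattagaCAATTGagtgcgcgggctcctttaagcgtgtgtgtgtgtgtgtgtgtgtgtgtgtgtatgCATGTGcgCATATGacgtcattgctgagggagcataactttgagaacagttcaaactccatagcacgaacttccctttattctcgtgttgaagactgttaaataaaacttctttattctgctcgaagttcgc
Msp300 intron: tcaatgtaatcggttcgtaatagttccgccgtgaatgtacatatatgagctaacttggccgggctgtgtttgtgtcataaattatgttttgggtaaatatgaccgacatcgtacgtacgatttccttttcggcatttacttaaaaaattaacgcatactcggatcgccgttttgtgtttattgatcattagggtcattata
wupA intron: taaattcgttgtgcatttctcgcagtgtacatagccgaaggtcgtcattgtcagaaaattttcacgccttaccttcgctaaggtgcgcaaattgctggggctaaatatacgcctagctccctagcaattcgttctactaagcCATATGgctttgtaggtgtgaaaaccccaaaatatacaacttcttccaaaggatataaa

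E boxes, which muscle and many other bHLH factors bind, were the only one of the 6 motifs in these intronic windows, with 3 in Tm1, 1 in wupA and none in Msp300. They are common: 66.2% of the windows of all pooled peaks hold an E box. No Mef2 match lay in the 3 intronic windows, and none of the 5 optimal windows held AGATAA (12.9% of all optimal windows) or GAGAG (26%). These letters are only absent from windows of 201 bp, and nothing follows from that about the factors.

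The optimal list was itself chosen for reproducibility between these replicates, so a match of its peaks is a description only. Of the 5 optimal peaks in the windows, 4 were matched within 200 bp by a summit ranked 3207 or better in replicate 3 and in replicate 4 (80%), the exception being the Tm1 promoter peak, and the share over all 3207 optimal peaks was 74.4%. Over the whole relaxed lists, 30 of the 72 peaks of replicate 3 in the windows had a match in replicate 4 (41.7%), against 49.4% of all peaks of replicate 3. In the other direction, 31 of 75 were matched (41.3%), against 49% of the list. The labels name the same possible control for both replicates, and its part in these matches was not tested. The files hold no read counts, and the depth of the samples is unknown.

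Other muscle genes also divided into a few bound and many unbound ones. Of 31 further genes for sarcomere, Z disc, membrane pump and muscle attachment proteins, 15 are at least 10 kb long, as are 14.2% of protein-coding genes. Among all protein-coding genes of that length, 22.6% were bound and 55% had an optimal peak in the window. Of the 31, 13 had an optimal peak in the gene or within 5 kb (41.9%, against 38.9% of all protein-coding genes). At a TSS, 4 of the 31 were bound (12.9%, against the 15.1% given above). Bound were tmod (tropomodulin, which caps thin filaments, rank 1356), if and mys (the integrins of muscle attachment sites, ranks 2074 and 1838) and Lasp (an actin-binding Z disc protein, rank 1526, at a TSS shared with CG43954). With the 3207 strongest peaks of replicate 4 alone, tmod and Lasp were not bound and 2 were left. The share of all protein-coding genes was not computed for that set. Several of the strongest peaks in the windows of the list lay at neighbours: rank 103 near Strn-Mlck was 131 bp from the TSS of CG8320, rank 243 near Mlp84B was 589 bp from that of Alh, and rank 471 near if was 44 bp from that of goe. At rank 1282 the summit was in an intron of Actn (alpha-actinin) but 183 bp from the TSS of usp, and its match ranked 7462 in replicate 3 and 814 in replicate 4. At rank 1286 near mys the nearest TSS, 813 bp away, was that of fs(1)h.

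A few of these genes had peaks of their own away from a start. tmod held one at rank 386 in an intron, 1458 bp downstream of the nearest TSS, which ranked 420 in replicate 3 and 324 in replicate 4. rhea (talin) had 3 optimal peaks, 840 bp upstream of its start and 551 and 2688 bp downstream of one, with a best rank of 1395. The peak nearest to SERCA (the calcium pump of the sarcoplasmic reticulum) was 520 bp upstream of its TSS at rank 1171, and that near Zasp52, at rank 344, lay 13606 bp from its nearest TSS, past the end of the gene. Act87E had one downstream, 2040 bp from its TSS, at rank 1146. In 28 of the 31 genes (90.3%, against 86.9% of protein-coding genes) the relaxed pooled list had some peak in the window. In that list TpnC4, TpnC41C and Zasp67 had none.

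**Figure D4:**
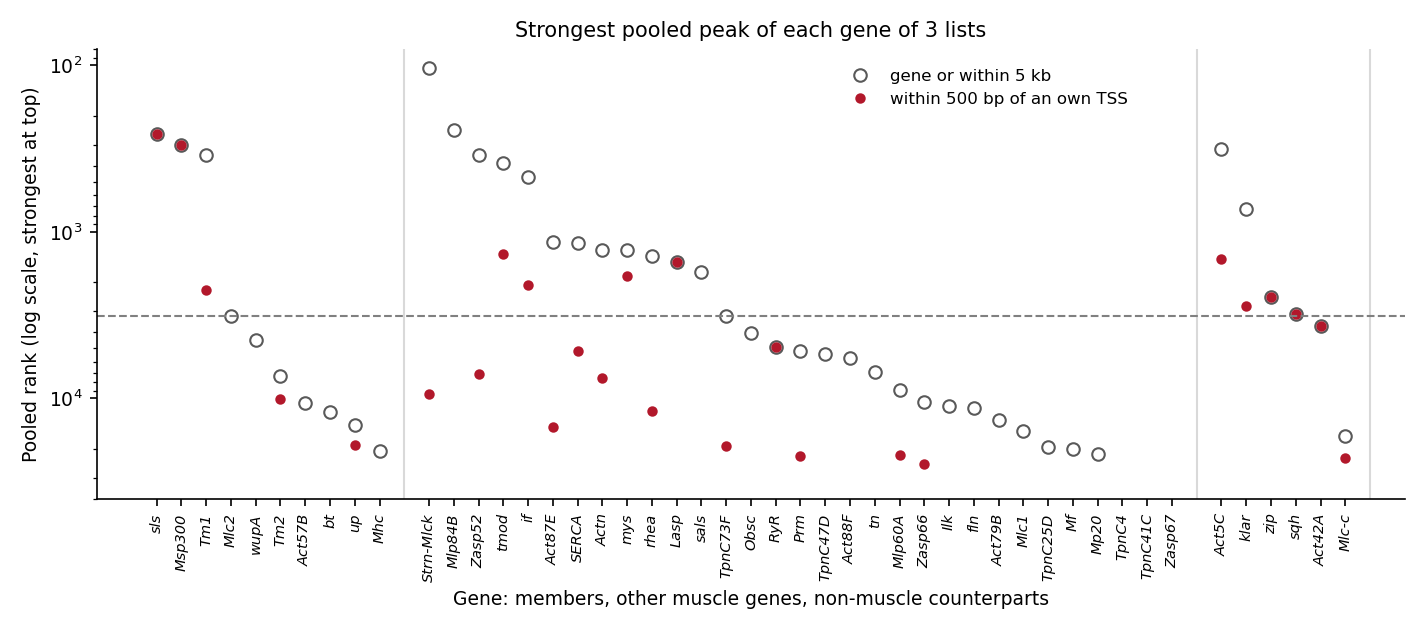
Pooled rank (log scale, strongest at the top) of the strongest peak in the gene or within 5 kb (open circles) and within 500 bp of an own TSS (red) for the 10 members, 31 other muscle genes and 6 genes listed as non-muscle counterparts; the dashed line is rank 3207. Red points above the line are 3 members, 4 other muscle genes and 4 counterparts.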

How the data were processed

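The authors deposited 4 peak lists in build dm6: a relaxed list for each replicate and for the pooled replicates, described per the deposited readme files as peaks and background for IDR, and the optimal IDR-thresholded list. The sources used here name no aligner or peak caller for them. The dm3 lists were not used. The signal value of each peak and its −log10 q-value are the authors' own. The latter reaches at most 3.93 and is 3.89 for every optimal peak, so ranks use the signal value. The summit is the deposited offset within each peak.

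Peaks were assigned to genes of Ensembl release 115 (transposable elements left out), whose build matches dm6, with Python 3.11.15, numpy 2.4.6 and pandas 2.3.3. Replicate matches are the nearest summit within 200 bp. The assignment was checked on peaks placed at known distances from 200 genes, all placed correctly. Members, lists and rules were chosen with earlier results of these data known, so no test was made. Of the other lists, the 12 genes with the strongest optimal peaks were named, and genes that complete a count were named after their values were seen. Unc-89 was matched by its older symbol to Obsc. Alternatives changed the TSS distance, the flank, the peak set and the motif window.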

Additional observations from a re-analysis of the deposited data

How the results depend on the processing

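The count of bound members stayed at 3 in 6 of 8 settings. It fell to 1, Tm1, with a TSS distance of 250 bp, since the sls and Msp300 summits lie further upstream, and to 2 with the stronger 1603 peaks, which leave Tm1 out. With 250 bp the Msp300 peak counted as 1 intronic peak. With gene bodies alone 2 optimal peaks were left of 5. Leaving out a replicate gave 5 to 6 peaks and 3 to 4 members with one. Other muscle genes bound were 7 at 1000 bp, 2 with the stronger 1603 peaks and 2 to 4 with a replicate left out. The share of all protein-coding genes was not computed under these other settings, so these counts have no background to be set beside. In motif windows of 50 bp to each side, 0 of the 5 optimal windows around members held a DRE, against 2.15% of all. An E box was in 1, the window near Cp190, against 38.4%. With 200 bp, 4 held an E box (87.4% of all), 3 GAGAG (47.3%) and 2 a CCAAT box (54.4%). The best rank of a member within 5 kb moved by more than 1 SD of the ranks in the 2 replicates in 11 of 20 comparisons with 1 replicate alone. No paired analysis was possible because there is 1 group.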

Other observations

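Of 6 genes listed as non-muscle counterparts of muscle genes, 4 carried peaks at a start (66.7%, against 15.1% of all protein-coding genes). With a TSS distance of 250 bp the count was 3, and with the stronger 1603 peaks 1, Act5C. The share of all genes at those settings was not computed. The genes were chosen with earlier results known, and this is a description of 6 genes. No expression values were used, so whether each is non-muscle was not checked. At least 10 kb long are 2 of the 6, zip and klar, which are among the 4. Among all protein-coding genes of that length 22.6% were bound. Act5C, a cytoplasmic actin, had a summit 452 bp upstream of a TSS at rank 1457 and stronger ones further upstream, at ranks 319 and 514. For all 3 the nearest annotated TSS was that of a long noncoding RNA, which was 420 bp from the summit at rank 1457. zip, the non-muscle myosin heavy chain, had one 99 bp upstream of a TSS at rank 2466, and sqh, its regulatory light chain, 122 bp downstream at rank 3105. klar, another KASH-domain protein that moves nuclei, had one 156 bp upstream at rank 2802, but the TSS of BORCS6 was nearer, at 81 bp. The counterparts Act42A and Mlc-c had no optimal peak in the gene or within 5 kb, and pooled ranks of 3694 and 22930 at a TSS. Of the muscle paralogues, Act57B, Mhc and Mlc2 had no optimal peak at their starts, and Msp300 did. The relaxed list of replicate 3 held weak peaks at a start of Mhc (rank 15354), Mlc2 (24906) and Act57B (25528). With replicate 4 alone zip and sqh were not bound and Act42A was, and with replicate 3 alone klar was not.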
